A study of Mus musculus with 11 samples.

Results

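Male mouse germ cells of stage E15.5 were compared with male germ cells of stage E13.5 (embryonic days of gestation) on Illumina BeadChip arrays, with 3 arrays at each stage. These are 6 of the 11 arrays of the series. A probe, a short DNA strand that captures 1 transcript, was kept when its signal stood above the negative controls at a detection p below 0.01 on at least 2 of the 6 arrays. This held for 18781 of 45281 probes. The kept probes named 10229 genes, each represented by its kept probe with the highest mean over the 6 arrays.

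Per the labels, the cells of both stages were taken by fluorescence-activated sorting as the gonad cells positive for a Pou5f1-GFP reporter, a green fluorescent protein under the control of the germ cell gene Pou5f1. All came from male gonads of embryos with parents of the stocks Hsd:ICR(CD-1) and (CBA/CaJ X C57BL/6J)F16+, and no group received a treatment or carried another allele in the labels. The labels call the replicates biological but do not say how many embryos were pooled, so p-values measure the spread between these samples. Germ cells without reporter signal were not sampled at either stage. The other 5 arrays are 3 of E11.5 germ cells, labelled male/female, and 2 of the reporter-negative, non-germ cells of E13.5 male gonads. They took part in normalization and in the estimate of the spread, and the non-germ arrays give the level of each gene in the rest of the gonad.

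As background, germ cells that reach a fetal testis stop dividing within days, enter a long arrest and take up the male programme, while those of a fetal ovary enter meiosis. Their DNA has by then lost nearly all of its methylation, and male germ cells restore it before birth with the methyltransferases Dnmt3a and Dnmt3b, the cofactor Dnmt3l and small RNAs (piRNAs) carried by PIWI proteins. Genes of pluripotency, which primordial germ cells share with embryonic stem cells, are switched off over the same time.

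All levels below are background-corrected, quantile-normalized log2 intensities, and all differences are E15.5 minus E13.5 on the log2 scale with the standard error (SE) of a limma fit. Genes with a Benjamini-Hochberg adjusted p under 0.05 were called. Levels of different genes come from different probes and were not compared. A gene counted as detected at a stage when its probe was detected on at least 1 array there. Of the called genes named below, Meiob and Tle6, which rose, and Bik, Etv1, H3c6, Hesx1, Kdm4c, Khdc3, Mycn, Ndufa1, Phf19, Prdm1, Ring1 and Rpl14, which fell, were detected on only 1 of 3 arrays of the lower stage, so the size of their difference rests on signal near background. In sorted bulk cells, fewer cells with a transcript and less transcript per cell cannot be told apart.

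The E15.5 arrays were less alike than the E13.5 arrays, and E15.5 replicate 2 stood apart most. Across the 10229 genes, which are no independent replicates, Pearson r was 0.968 between E15.5 replicates 1 and 3, while replicate 2 correlated with them at 0.915 and 0.933. The E13.5 arrays correlated with each other at 0.975 to 0.985. With the non-germ arrays the mean r was 0.851 for E15.5 replicate 2, against 0.696 and 0.709 for E15.5 replicates 1 and 3 and 0.721 to 0.741 for the E13.5 arrays. The mean over 10 germ cell markers was similar on all 6 arrays, at 10.90 to 11.30 at E15.5 and 11.17 to 11.30 at E13.5. In non-germ cells it was 5.49 to 5.56. Single members went both ways, with 3 called higher and 4 lower at differences of -1.60 to 1.44 (30% and 40%, against 24% and 24.1% of all genes). Markers of other gonadal cells were higher on E15.5 replicate 2. Its mean over 19 markers of interstitial cells was 9.27, against 6.60 and 6.53 on E15.5 replicates 1 and 3, 5.68 to 5.83 at E13.5 and 10.24 to 10.26 in non-germ cells. All 19 were detected on E15.5 replicate 2. The mean over 20 Sertoli cell markers was 8.04 on E15.5 replicate 2, against 5.93 and 6.60 on E15.5 replicates 1 and 3 and 5.60 to 6.21 at E13.5. Results were therefore computed with all arrays and again without E15.5 replicate 2. The part of these markers in any result was tested only by that omission.

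**Figure D1:**
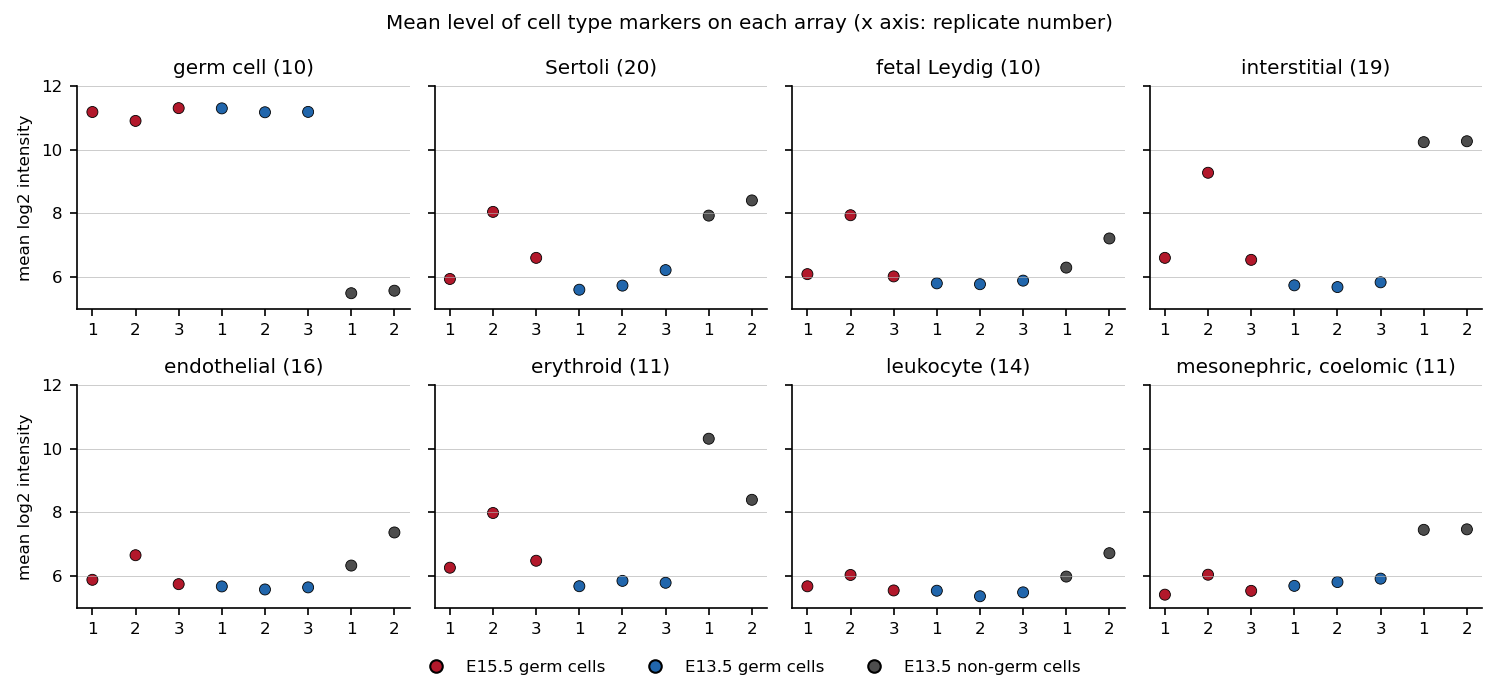
Mean log2 intensity of cell type marker lists (number of genes with a probe in brackets) on each array, E15.5 germ cells left of E13.5 germ cells and of E13.5 non-germ cells, with replicate numbers on the x axis. E15.5 replicate 2 stands above the other germ cell arrays in all lists but that of germ cells, at 9.27 for interstitial markers.

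The promoters below belong to genes on which the comparison turns: Sohlh1 and Tdrd9, which rose, Mt1 and Mt2, metallothionein genes that were higher together, and Nanog, which fell. Each line gives the 250 bases before the transcription start, 5′ to 3′ on the gene's strand, from the RefSeq promoter table (GRCm38.p6), which held 160 of 206 genes named under the rule given under processing. Capitals in Sohlh1 (chr2:25847249-25847498, minus strand) and Tdrd9 (chr12:111971309-111971558, plus strand) mark the palindromic E-box CACGTG, a site that basic helix-loop-helix proteins bind. Capitals in Mt1 (chr8:94178839-94179088, plus strand) and Mt2 (chr8:94172368-94172617, plus strand) mark the core of the metal response element, TGCGCNC or TGCACNC on either strand. In Nanog (chr6:122707239-122707488, plus strand, the first of 2 starts listed) they mark the paired POU and SOX site, TTTGCAT and ACAATG with 1 base between, also searched on both strands.
Sohlh1: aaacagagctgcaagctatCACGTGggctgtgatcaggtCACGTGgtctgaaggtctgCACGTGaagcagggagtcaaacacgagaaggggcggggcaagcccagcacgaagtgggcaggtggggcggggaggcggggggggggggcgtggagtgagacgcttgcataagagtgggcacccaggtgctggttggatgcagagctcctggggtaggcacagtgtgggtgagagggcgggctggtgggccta
Tdrd9: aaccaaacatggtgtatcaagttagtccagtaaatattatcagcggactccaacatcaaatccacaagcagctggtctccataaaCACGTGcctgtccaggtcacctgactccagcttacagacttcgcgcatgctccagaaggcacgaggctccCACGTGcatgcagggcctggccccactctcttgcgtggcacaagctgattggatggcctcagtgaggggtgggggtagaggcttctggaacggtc
Mt1: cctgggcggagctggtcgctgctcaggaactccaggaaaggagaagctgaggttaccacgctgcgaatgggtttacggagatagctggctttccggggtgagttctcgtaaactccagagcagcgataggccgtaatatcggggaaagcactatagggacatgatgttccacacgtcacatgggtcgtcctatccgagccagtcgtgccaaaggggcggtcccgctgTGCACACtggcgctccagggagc
Mt2: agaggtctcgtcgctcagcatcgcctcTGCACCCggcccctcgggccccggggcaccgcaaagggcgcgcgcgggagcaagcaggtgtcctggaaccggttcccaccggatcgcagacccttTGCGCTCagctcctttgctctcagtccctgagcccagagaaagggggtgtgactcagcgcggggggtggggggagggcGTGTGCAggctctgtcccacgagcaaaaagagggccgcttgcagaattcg
Nanog: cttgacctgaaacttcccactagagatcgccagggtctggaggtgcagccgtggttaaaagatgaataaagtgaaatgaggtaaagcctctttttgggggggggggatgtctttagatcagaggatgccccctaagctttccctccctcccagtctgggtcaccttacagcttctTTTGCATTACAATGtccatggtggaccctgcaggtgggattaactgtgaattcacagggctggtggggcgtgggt

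The E-box had 3 matches before Sohlh1 and 2 before Tdrd9, the metal response core 1 before Mt1 and 3 before Mt2, and the paired site 1 before Nanog, with no overlap between matches. A match is a description of these letters only. The E-box was found before 9.44% of the genes called higher and 8.41% of those called lower, against 8.85% of measured genes and 6.05% of 27025 genes in the table. The metal response core was found before 30.3% of the genes called higher and 32.7% of those called lower, against 31.1% of measured genes and 21.3% of the table. The shares among called genes thus lay close to those among measured genes. Nanog was the only gene of the 27025 with an exact match to the paired site, as spelled above, in the bases searched. Other spellings of the site and bases further from the start were not searched. The count therefore cannot tell whether other genes carry a paired POU and SOX site.

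About as many genes were higher as lower at E15.5. Of the 18781 probes, 3896 were called higher (20.7%) and 4665 lower (24.8%), and of the 10229 genes, 2455 higher (24%) and 2469 lower (24.1%). Of the genes, 1443 were called and at least 2-fold higher (14.1%) and 1138 at least 2-fold lower (11.1%). The median difference over all genes was -0.02. Without E15.5 replicate 2, 2389 of 9611 genes were called higher (24.9%) and 2505 lower (26.1%), and 2092 (20.5%) and 2199 (21.5%) of the 10229 were called higher or lower in both fits. The values of the 3 arrays of 1 stage all lay above or all below those of the other stage for 55.6% of genes, so separation of the stages alone is common here. Cyclic loess normalization in place of quantile normalization raised the median of all genes to 0.12 and the share of higher among called probes to 57.4%, against 45.5%. The counts were then 4807 probes higher and 3563 lower. The size of a difference depended on the background step: without background correction the 185 called genes among the 206 named had a median of 51.3% of the log2 difference given here, and in the authors' processed values 46.4%.

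Genes detected on neither non-germ array made up 19.2% of those called higher, 9.52% of those called lower and 11.8% of all genes. The non-germ mean lay above the E13.5 mean for 61.3% of genes called higher, 19.4% of those called lower and 40% of all genes. The cause of these differences was not tested.

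**Figure D2:**
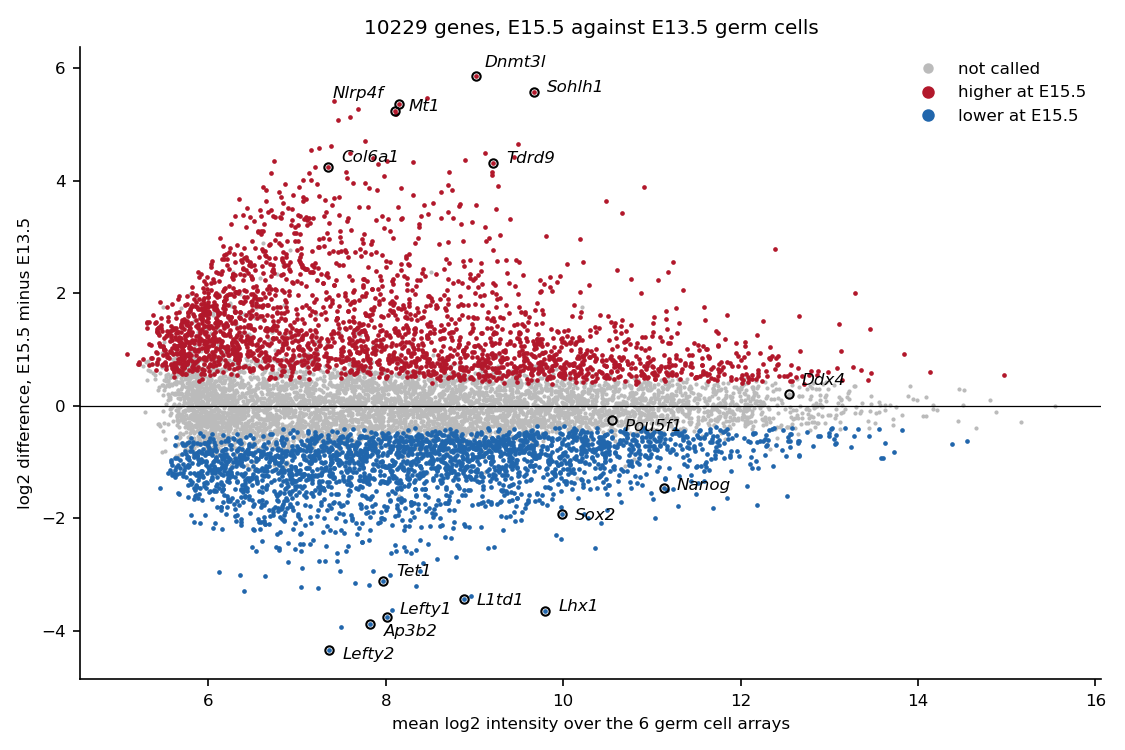
Difference, E15.5 minus E13.5 (log2), against mean level over the 6 arrays (log2 intensity) for each of 10229 genes, with called genes coloured and selected genes labelled. Called genes lie on both sides of 0 in like number, 2455 above and 2469 below.

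Dnmt3l and both de novo DNA methyltransferases rose, while other genes of the DNA methylation list fell. Of 12 measured genes of the list, 6 rose and 5 fell, where 24% and 24.1% of all genes did. Dnmt3l, the cofactor without catalytic activity that activates Dnmt3a and Dnmt3b, had log2 intensities of 11.93, 11.71 and 12.21 at E15.5, against 7.15, 5.91 and 5.19 at E13.5. All E15.5 arrays lay above all E13.5 arrays, of which replicate 1 was highest and the only one on which the probe was detected. The difference was 5.87 ± 0.38 (adjusted p = 1.7e-06). Dnmt3a, a de novo methyltransferase, had 9.38, 10.39 and 9.86 at E15.5, against 7.12, 7.47 and 7.75 at E13.5, a difference of 2.43 ± 0.28 (adjusted p = 7.02e-05). Dnmt3b, the other de novo methyltransferase, averaged 12.42 ± 0.12 at E15.5 and 11.48 ± 0.04 at E13.5 (SD, n = 3 each), a smaller difference of 0.94 ± 0.14 (adjusted p = 0.000301). Neither overlapped between the stages. Dnmt3a was also high in non-germ cells, at a mean of 11.03, whereas Dnmt3l was not, at 4.72. Ehmt2, a histone H3 lysine 9 methyltransferase, rose by 1.25 ± 0.18 (adjusted p = 0.000279).

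Factors that maintain methylation were not called higher. Dnmt1, which copies methylation onto newly replicated DNA, had 13.05, 12.48 and 12.69 at E15.5, against 12.21, 13.12 and 13.09 at E13.5. The stages overlapped, and the difference of -0.07 ± 0.26 did not pass the test (adjusted p = 0.854). Uhrf1, which brings Dnmt1 to hemimethylated sites, was lower by a small margin, with 12.88, 13.14 and 13.02 at E15.5, against 13.61, 13.43 and 13.62 at E13.5. Its difference was -0.54 ± 0.17 (adjusted p = 0.0221), and the call was lost without E15.5 replicate 1, E13.5 replicate 1 or E13.5 replicate 3, with cyclic loess, and with cyclic loess or the replicate block without E15.5 replicate 2, with adjusted p up to 0.0928. Hells, a chromatin remodeller needed for DNA methylation, fell by 1.36 ± 0.17, Mbd3, a subunit of the NuRD corepressor, fell by 1.10 ± 0.18, and Trim28, the corepressor that binds KRAB zinc finger proteins, fell by 0.94 ± 0.17 on the log2 scale (adjusted p = 0.000118, 0.000517 and 0.00126). The count of lower genes in the list was 3 in place of 5 without E15.5 replicate 1, without E13.5 replicate 3 and with cyclic loess.

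The piRNA pathway, which silences transposons in male germ cells, was higher in most of its members. Of 22 measured genes 15 rose and 1 fell (68.2% and 4.55%, against 24% and 24.1% of all genes). The median difference was 1.02, against -0.02 over all genes. Without E15.5 replicate 2 these counts were 16 and 1. Tdrd9, a helicase with a Tudor domain, had 11.42, 11.03 and 11.65 at E15.5, against 7.76, 7.25 and 6.17 at E13.5, a difference of 4.31 ± 0.37 (adjusted p = 1.08e-05). Gtsf1, a zinc finger partner of PIWI proteins, had 10.62, 9.60 and 10.31 at E15.5, against 7.41, 6.27 and 5.60 at E13.5, a difference of 3.75 ± 0.39 (adjusted p = 3.4e-05). In both, E13.5 replicate 1 was the highest of its stage but stayed below every E15.5 array.

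The PIWI proteins themselves differed in level change. Piwil4, which enters the nucleus and directs methylation to transposons, had 8.35, 7.38 and 8.07 at E15.5, against 6.18, 5.28 and 5.14 at E13.5. It was not detected on any E13.5 array and was at least 3.4-fold higher at E15.5 (adjusted p = 0.000248), where that bound sets the E15.5 mean against the lowest signal called detected on each E13.5 array or the probe's own signal, whichever was higher. All bounds given here hold only for the background-corrected values. In the authors' processed values the log2 difference of Piwil4 was 0.69, which is smaller than its bound. Piwil1, best known from meiotic spermatocytes, had 11.62, 11.41 and 11.99 at E15.5, against 9.12, 8.72 and 8.26 at E13.5, a difference of 2.97 ± 0.22 (adjusted p = 4.61e-06). Piwil2, the cytoplasmic partner that feeds Piwil4, was already high at E13.5, with 13.02, 12.56 and 13.01 at E15.5, against 12.17, 11.99 and 11.81 at E13.5, a difference of 0.88 ± 0.22 (adjusted p = 0.00686). Tdrd1, a Tudor scaffold of PIWI proteins, rose by 1.44 ± 0.22 and Mael, a piRNA pathway protein, by 1.35 ± 0.29 (adjusted p = 0.000441 and 0.00298). Tdrd12 was the exception in the list and fell by 0.76 ± 0.18 (adjusted p = 0.00507). All these genes had means of 4.47 to 5.96 in non-germ cells.

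**Figure D3:**
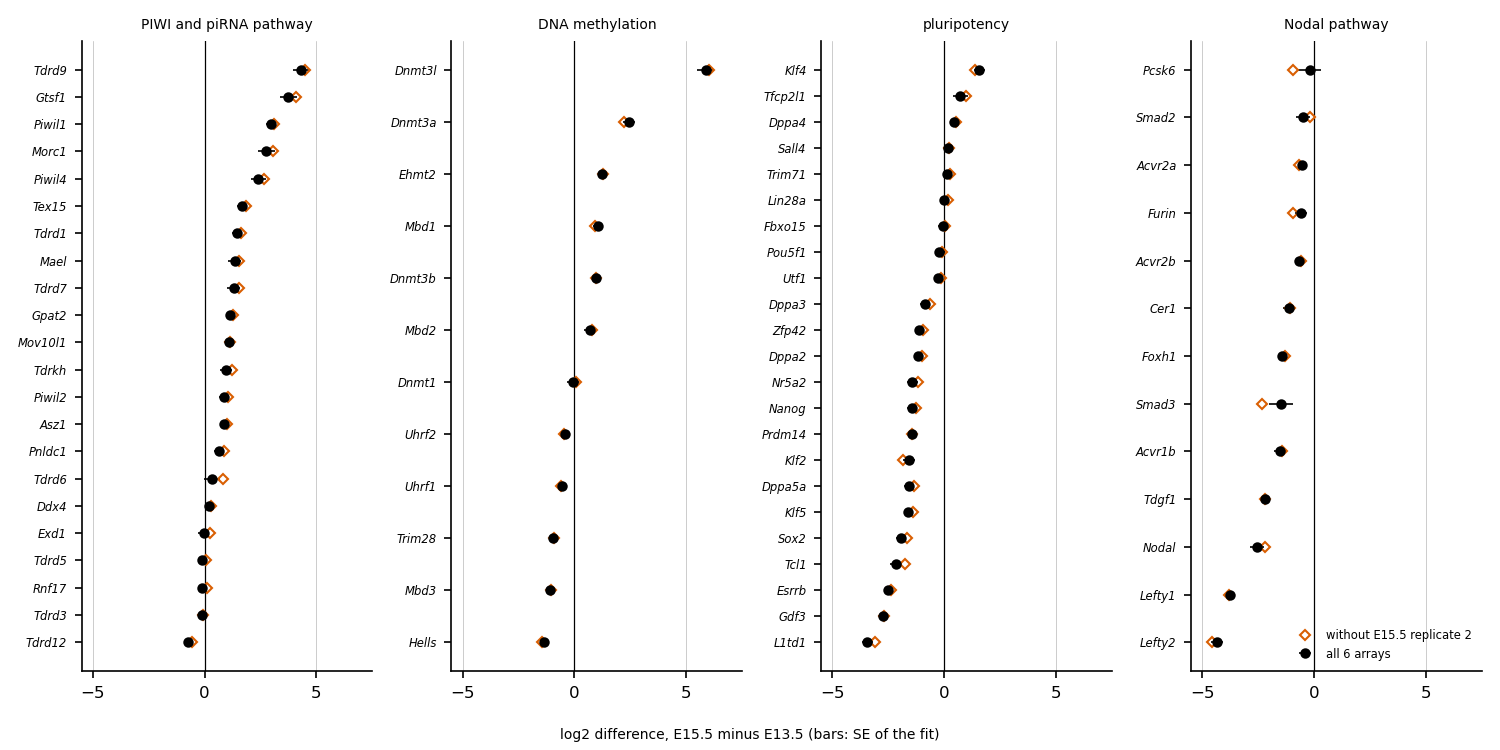
Differences, E15.5 minus E13.5 (log2), of the measured members of selected gene lists, each row 1 gene: black points with SE bars for all 6 arrays and open diamonds for the fit without E15.5 replicate 2. Members of the DNA methylation list lie on both sides of 0, those of the piRNA list mostly above it (15 of 22 called higher) and those of the Nodal list below it (10 of 13 called lower). Of all genes, 24% were called higher and 24.1% lower.

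Beyond these lists, the largest rises among genes with a detection at both stages were in genes of varied kind, and Nlrp4f, Tmc7, Ct55, Col22a1 and Gm364 were detected on only 1 of 3 E13.5 arrays, so their size and order rest on signal near background. Sohlh1, a helix-loop-helix factor of spermatogonial differentiation whose promoter is printed above, had 12.48, 12.34 and 12.57 at E15.5, against 7.93, 6.40 and 6.30 at E13.5, a difference of 5.59 ± 0.41 (adjusted p = 3.75e-06). Nlrp4f, a germline member of the NLR family, had 10.93, 10.64 and 10.93 at E15.5, against 6.42, 4.98 and 4.97 at E13.5, a difference of 5.37 ± 0.33 (adjusted p = 1.27e-06). Tmc7, of the transmembrane channel-like family, had 11.15, 10.98 and 11.47 at E15.5, against 7.19, 4.87 and 5.14 at E13.5, a difference of 5.47 ± 0.47 (adjusted p = 1.1e-05). In these genes only E13.5 replicate 1 stood above the level of the other E13.5 arrays, and over the omission of single arrays the Tmc7 difference ranged from 5.02 to 6.20, highest without it. Nxf2, a testis member of the RNA export factor family, rose by 4.49 ± 0.48, Ct55, a cancer/testis antigen, by 4.34 ± 0.30, Clstn3, a calsyntenin, by 4.42 ± 0.17, Dlx3, a homeobox factor, by 4.37 ± 0.27, and Col22a1, a collagen, by 4.29 ± 0.32. Gm364 rose by 4.35 ± 0.36. The shown probe of Nckap5 rose by 4.65 ± 0.34, but over the mean of its 4 kept probes the difference was 1.61, so its place among the largest rises rests on 1 probe. Adjusted p for these 7 genes was between 9.92e-08 and 4.07e-05. The difference of Nxf2 ranged from 3.89 to 5.14, again highest without E13.5 replicate 1. Sohlh1, Nlrp4f, Nxf2 and Gm364 had means of 4.91 to 6.08 in non-germ cells, whereas Clstn3 and Dlx3 had means of 10.14 and 9.37 there.

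Some genes were detected on every E15.5 array and on no E13.5 array. Mt1, a metallothionein that binds zinc and copper, had 10.49, 10.61 and 11.06 at E15.5, against 5.89, 5.12 and 5.45 at E13.5. It was detected on all E15.5 and no E13.5 arrays and was at least 23.5-fold higher at E15.5 (adjusted p = 4.22e-07). Mt2, its neighbour on the chromosome, had 6.14, 6.83 and 7.52 at E15.5, against 5.09, 4.94 and 5.44 at E13.5, was detected on 2 of 3 E15.5 arrays and was at least 1.59-fold higher (adjusted p = 0.00129). Without E15.5 replicate 2 the Mt2 probe was detected on too few arrays to be tested. At E11.5 the means of Mt1 and Mt2 were 8.26 and 7.39, so both means at E13.5 were the lowest of the 3 germ cell stages. Mpp3, a membrane-associated guanylate kinase, was at least 23.3-fold higher, Gm14594 at least 17.8-fold, Prdm16, a zinc finger regulator of transcription, at least 16-fold, and Sag, the retinal arrestin, at least 14.9-fold. The bounds of Ildr2 and of Slc22a16, a carnitine transporter of testis, lay between those of Prdm16 and Sag. Vwf, von Willebrand factor, was at least 14.3-fold higher. Adjusted p for these 7 genes was between 6.09e-08 and 2.5e-06. Gm14594, Slc22a16, Prdm16 and Vwf had means of 4.69 to 5.34 in non-germ cells, under the lowest detected signal there of 5.82, while Mpp3 and Ildr2 had 10.19 and 10.46 there.

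**Figure D4:**
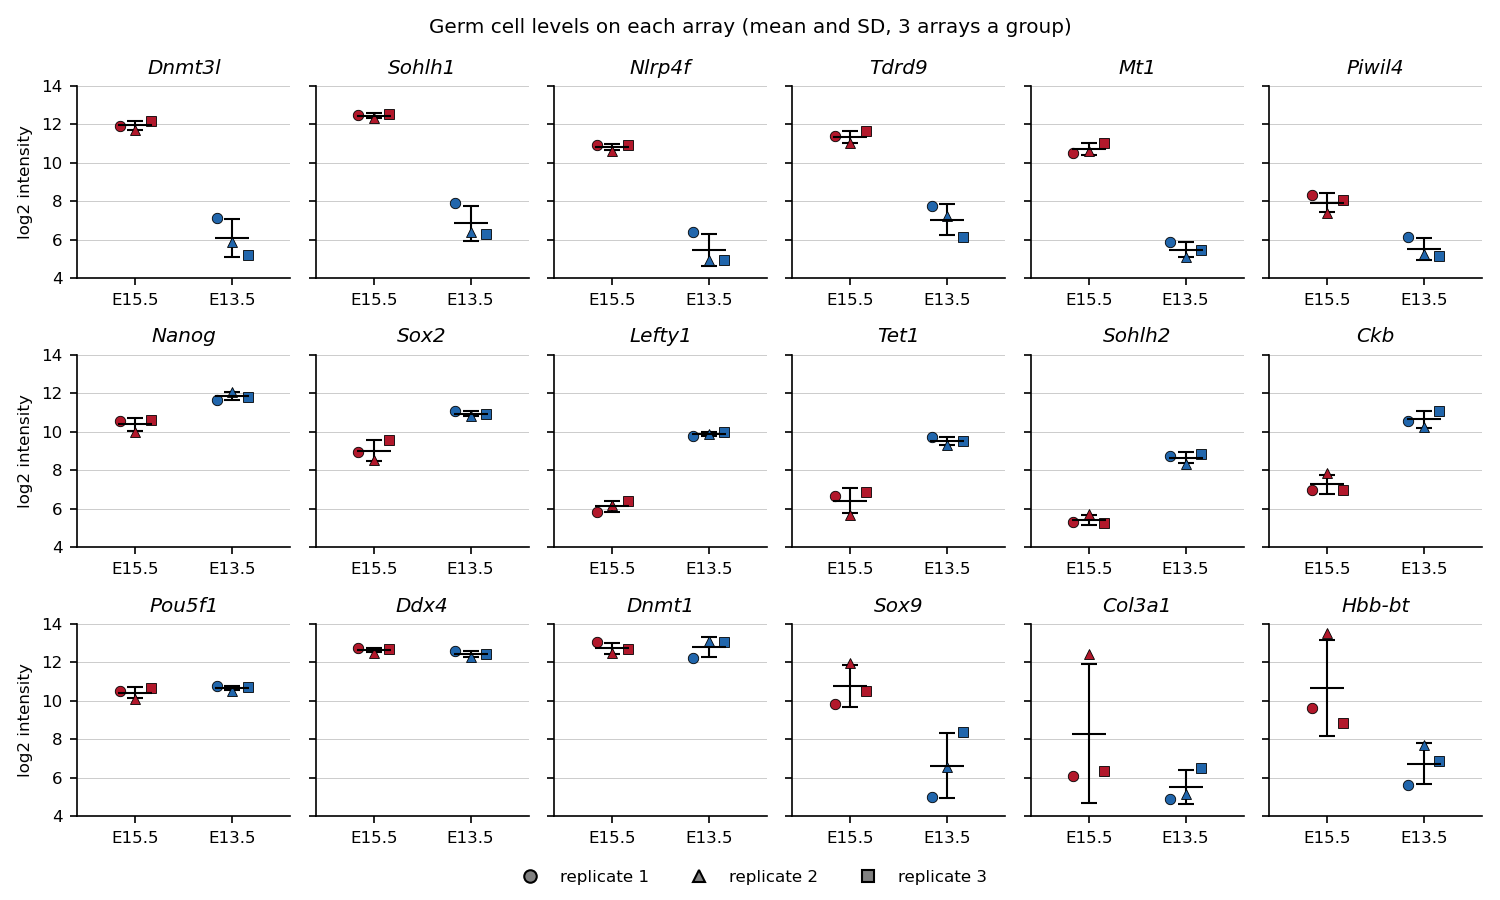
Log2 intensity of selected genes on each array, E15.5 left of E13.5, with a point for each array (shapes give the replicate) and bars for the mean and SD of 3 arrays. Dnmt3l, Sohlh1, Mt1 and Piwil4 are higher on every E15.5 array than on every E13.5 array, Nanog and Tet1 are lower, and Col3a1 is high only on E15.5 replicate 2 among the 6 arrays.

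The pluripotency list fell in most members. Of 23 measured genes 1 rose and 14 fell (4.35% and 60.9%, against 24% and 24.1% of all genes), with a median difference of -1.17. The Pou5f1 transcript was an exception, with 10.50, 10.10 and 10.66 at E15.5, against 10.77, 10.54 and 10.71 at E13.5. The stages overlapped and the difference of -0.25 ± 0.18 did not pass the test (adjusted p = 0.28). Because cells were sorted on a Pou5f1 reporter, cells that had lost its signal were not sampled. Nanog, a homeobox factor of the pluripotency network, had 10.58, 10.01 and 10.62 at E15.5, against 11.66, 12.10 and 11.82 at E13.5, a difference of -1.46 ± 0.23 (adjusted p = 0.000491), and Sox2, the partner of Pou5f1, had 8.94, 8.52 and 9.60 at E15.5, against 11.09, 10.85 and 10.91 at E13.5, a difference of -1.93 ± 0.24 (adjusted p = 0.000105). L1td1, an RNA-binding protein derived from LINE-1, had 7.59, 6.46 and 7.42 at E15.5, against 10.41, 10.80 and 10.59 at E13.5, the largest fall in the list at -3.44 ± 0.26 (adjusted p = 4.8e-06). Gdf3, a TGF-beta family ligand, fell by 2.76 ± 0.21 and Esrrb, an orphan nuclear receptor, fell by 2.53 ± 0.19 (adjusted p = 4.49e-06 and 4.8e-06). None of these overlapped between stages. Klf4, a Kruppel-like factor, went the other way, with 7.81, 8.68 and 8.19 at E15.5, against 6.44, 7.09 and 6.47 at E13.5, a difference of 1.56 ± 0.24 (adjusted p = 0.000399). The number of higher members was 3 in place of 1 without E15.5 replicate 2 and with cyclic loess.

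Nodal, a TGF-beta family ligand that acts through the co-receptor Tdgf1 and induces its own antagonists Lefty1 and Lefty2, fell together with these. Of 13 measured members of the pathway none rose and 10 fell (0% and 76.9%, against 24% and 24.1% of all genes). The median was -1.44. Nodal had 6.91, 6.30 and 7.98 at E15.5, against 9.49, 9.69 and 9.68 at E13.5, a difference of -2.56 ± 0.33 (adjusted p = 0.000123), and of -1.53 over the mean of its 2 kept probes. Lefty1 had 5.82, 6.18 and 6.39 at E15.5, against 9.82, 9.88 and 9.98 at E13.5, a difference of -3.76 ± 0.19 (adjusted p = 4.22e-07). Lefty2 had 4.97, 5.65 and 4.96 at E15.5, against 9.45, 9.74 and 9.43 at E13.5 and was detected on no E15.5 array. It was at least 11.8-fold lower at E15.5 (adjusted p = 1.5e-06), and Tdgf1, also undetected at E15.5, at least 3.1-fold lower (adjusted p = 2.49e-05). E15.5 replicate 3 kept the most Nodal, still below every E13.5 array. The count of lower members was 6 without E13.5 replicate 2.

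Genes of early primordial germ cells fell in 11 of 19 measured members and rose in 1, with a median of -0.94. These shares were 57.9% and 5.26%, against 24.1% lower and 24% higher of all genes. Prdm1, the repressor that specifies primordial germ cells, had 6.33, 5.63 and 6.82 at E15.5, against 8.88, 8.79 and 8.84 at E13.5, a difference of -2.57 ± 0.26 (adjusted p = 2.98e-05). Ifitm3, a membrane protein of early germ cells, fell by 1.93 ± 0.16 (adjusted p = 7.96e-06), and Rhox9, a homeobox gene undetected at E15.5, was at least 3.05-fold lower (adjusted p = 5.04e-05). Kit, the receptor for stem cell factor, had 8.21, 9.41 and 9.29 at E15.5, against 10.57, 10.38 and 10.69 at E13.5, a difference of -1.58 ± 0.29 (adjusted p = 0.00129). The member that rose was Dnd1, an RNA-binding partner of Nanos2, by 0.99 ± 0.21 (adjusted p = 0.00282).

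Genes of male germ cell differentiation rose in 12 of 16 measured members and fell in 2 (75% and 12.5%, against 24% and 24.1% of all genes). The median was 1.22, and the counts were the same without E15.5 replicate 2. Besides Dnmt3l and Tdrd9, Tex101, a surface protein of the male germ line, had 9.83, 9.62 and 9.62 at E15.5, against 7.01, 6.28 and 5.80 at E13.5, a difference of 3.32 ± 0.30 (adjusted p = 1.36e-05). Nanos2, the RNA-binding protein that promotes the male fate, overlapped between the stages, with 11.59, 10.93 and 11.39 at E15.5, against 11.58, 11.60 and 10.96 at E13.5. Its difference of -0.08 ± 0.22 did not pass the test (adjusted p = 0.802), while its mean at E11.5 was 5.15. Rasgrp1, a Ras guanine nucleotide exchange factor, had 6.90, 6.45 and 7.72 at E15.5, against 9.91, 9.87 and 9.67 at E13.5, a difference of -2.79 ± 0.26 (adjusted p = 1.94e-05). Dazl, an RNA-binding protein of germ cells, fell by 0.73 ± 0.18 (adjusted p = 0.00791), a call lost only with cyclic loess without E15.5 replicate 2. Ddx4, a germ cell RNA helicase, had 12.74, 12.50 and 12.70 at E15.5, against 12.62, 12.27 and 12.42 at E13.5 and did not pass the test (difference 0.21 ± 0.15, adjusted p = 0.279).

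Genes known from postnatal spermatogonial stem cells were split, 6 of 19 measured members higher and 6 lower. These shares of 31.6% each compare with 24% and 24.1% of all genes. The list median of -0.08 changed sign with cyclic loess, with array weights and without E13.5 replicate 1. Bcl6b, a transcriptional repressor downstream of GDNF, had 10.89, 10.50 and 11.03 at E15.5, against 7.48, 7.26 and 6.96 at E13.5, a difference of 3.57 ± 0.32 (adjusted p = 1.34e-05). Thy1, a surface antigen of these stem cells, had 8.33, 8.12 and 8.50 at E15.5, against 4.94, 4.94 and 4.65 at E13.5 and was at least 4.44-fold higher at E15.5 (adjusted p = 1.97e-06). Its mean in non-germ cells was 9.56. Sohlh2, the helix-loop-helix partner of Sohlh1, went against it: it had 5.33, 5.74 and 5.26 at E15.5, against 8.77, 8.34 and 8.87 at E13.5, was undetected at E15.5 and was at least 6.38-fold lower (adjusted p = 1.33e-06). Lhx1, a LIM homeobox factor, had 8.04, 7.87 and 8.00 at E15.5, against 11.37, 11.82 and 11.67 at E13.5, a difference of -3.65 ± 0.18 (adjusted p = 3.2e-07), and Etv5, an ETS factor, fell by 1.80 ± 0.20 (adjusted p = 5.8e-05). Id4, an inhibitor of helix-loop-helix factors, did not pass the test (difference 0.01 ± 0.18, adjusted p = 0.971). Gfra1 and Zbtb16, which mark undifferentiated spermatogonia after birth, were detected on none of the 6 arrays.

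Other large falls were spread over several functions. Ap3b2, a subunit of the neuronal AP-3 adaptor, had 5.68, 6.03 and 5.94 at E15.5, against 9.84, 9.60 and 9.87 at E13.5, the largest fall of a gene detected at both stages at -3.89 ± 0.22 (adjusted p = 6.26e-07). Etv1, an ETS factor, fell by 3.63 ± 0.30, Hesx1, a homeobox repressor, fell by 3.15 ± 0.20, Tmem231, a protein of the ciliary transition zone, fell by 3.20 ± 0.26, and Glrx, glutaredoxin, fell by 3.19 ± 0.36 (adjusted p between 1.62e-06 and 5.8e-05). Otx2, a homeobox factor of the early embryo, had 5.41, 5.32 and 5.85 at E15.5, against 9.26, 9.69 and 9.45 at E13.5. It was detected on all E13.5 and no E15.5 arrays and was at least 11.2-fold lower (adjusted p = 1.92e-06). Usp29, an imprinted deubiquitinase, was at least 4.97-fold lower, Insm1, a zinc finger factor, at least 4.26-fold, Slc35d3, a transporter family member, at least 4.19-fold, and Alg13, an enzyme of N-glycosylation, at least 4.1-fold (adjusted p between 1.11e-06 and 7.91e-05). Hesx1 and Otx2 were also low at E11.5, with means of 4.94 and 6.20.

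Genes of the dividing cell fell together. Of 36 measured genes of DNA replication none rose and 24 fell (66.7%, median -0.90). Of 34 of mitosis none rose and 25 fell (73.5%, median -0.91), with 1 higher without E15.5 replicate 3. Among 19 cyclins and E2F factors of the G1 to S transition 1 rose and 11 fell (5.26% and 57.9%, median -0.67). Of all genes, 24% rose and 24.1% fell. Tyms, thymidylate synthase, had 7.44, 8.30 and 6.88 at E15.5, against 9.82, 9.64 and 9.60 at E13.5, a difference of -2.14 ± 0.31 (adjusted p = 0.00027), and of -1.39 over the mean of its 3 kept probes. Gmnn, geminin, which blocks origins from firing again, fell by 2.12 ± 0.23 and Mcm2, a subunit of the replicative helicase, fell by 2.07 ± 0.23 (adjusted p = 4.54e-05 and 4.92e-05). Aurkb, a mitotic kinase, had 7.30, 8.02 and 6.15 at E15.5, against 9.24, 9.26 and 9.37 at E13.5, a difference of -2.13 ± 0.38 (adjusted p = 0.00103), and Plk1, another, had 9.09, 9.83 and 9.22 at E15.5, against 11.38, 11.45 and 11.57 at E13.5, a difference of -2.09 ± 0.22 (adjusted p = 3.83e-05). In Tyms, Aurkb and Plk1 E15.5 replicate 2 was the highest E15.5 array, and non-germ means were 9.27, 8.59 and 9.82. Without that array their differences were -2.55 ± 0.23, -2.59 ± 0.32 and -2.32 ± 0.19. Ccnb2, a mitotic cyclin undetected at E15.5, was at least 3.07-fold lower (adjusted p = 2.21e-05). Mycn, a MYC family factor, had 5.94, 5.84 and 5.80 at E15.5, against 8.82, 8.58 and 8.48 at E13.5, a difference of -2.77 ± 0.20 (adjusted p = 3.2e-06), and Mycl was at least 2.41-fold lower (adjusted p = 3.54e-06).

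Cell cycle inhibitors had no common direction. Of 14 measured 3 rose and 2 fell (21.4% and 14.3%, against 24% and 24.1% of all genes). Cdkn1b, an inhibitor of cyclin-dependent kinases, had 9.39, 9.23 and 8.91 at E15.5, against 9.23, 9.01 and 8.59 at E13.5, overlapping between stages (difference 0.23 ± 0.24, adjusted p = 0.467). Cdkn1c and Cdkn2b, of the same function, did not pass the test (differences -0.05 ± 0.27 and 0.28 ± 0.31, adjusted p = 0.901 and 0.5). Without E15.5 replicate 2, Cdkn2b was called higher, by 0.67 ± 0.23 (adjusted p = 0.0345). Cdkn2a, which encodes both a kinase inhibitor and the p53 activator ARF, had 10.49, 9.95 and 10.67 at E15.5, against 9.29, 9.54 and 9.54 at E13.5, a difference of 0.92 ± 0.25 (adjusted p = 0.0114), with a non-germ mean of 4.90. Cdkn1a, a target of p53, fell by 0.96 ± 0.27 (adjusted p = 0.0144), a call lost without E15.5 replicate 3. The shown probe of Rbl1, the other member called lower, fell by 1.22, but another of its probes was called higher, by 0.74 ± 0.21 (adjusted p = 0.0139). Besides Cdkn2a, the members called higher were Btg2 and Gadd45g, and both calls were lost under several settings. Btg2 had 6.45, 9.32 and 7.17 at E15.5, highest on replicate 2. Without E15.5 replicate 2 the Gadd45g probe was not tested. The count of higher members was 1 without E13.5 replicate 1 or E13.5 replicate 2. Of the D cyclins, Ccnd1 and Ccnd3 overlapped between stages and did not pass the test (differences -0.28 ± 0.41 and 0.14 ± 0.23, adjusted p = 0.61 and 0.664), and Ccnd1 was called lower without E15.5 replicate 2, at -0.82 ± 0.29. Ccnd2 did not overlap and went the other way, with 6.00, 8.92 and 6.57 at E15.5, against 5.13, 5.85 and 5.69 at E13.5, highest on E15.5 replicate 2. Its difference of 1.61 ± 0.62 did not pass the test (adjusted p = 0.0529), and was called with cyclic loess and without E15.5 replicate 1. Without E15.5 replicate 2 this Ccnd2 probe was detected on too few arrays to be tested. In that fit the gene's other kept probe differed by 0.08. Ccne1 was detected on none of the 6 arrays.

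Meiotic genes had no common direction. Of 22 measured 5 rose and 4 fell (22.7% and 18.2%, against 24% and 24.1% of all genes), with a median of 0.08. Sycp2, a component of the synaptonemal complex axis, had 8.69, 8.14 and 8.34 at E15.5, against 7.01, 7.39 and 6.75 at E13.5, a difference of 1.33 ± 0.19 (adjusted p = 0.000299), and Syce3, of its central element, rose by 1.28 ± 0.24 (adjusted p = 0.00153). Meiob, a single-strand DNA binding protein of meiotic recombination, rose by 1.40 ± 0.22 (adjusted p = 0.000411). Syce2, also of the central element, went the other way, with 7.56, 6.71 and 7.05 at E15.5, against 9.17, 9.33 and 9.43 at E13.5, a difference of -2.21 ± 0.22 (adjusted p = 2.42e-05), and Smc1b, the meiotic cohesin, fell by 1.22 ± 0.20 (adjusted p = 0.000592). Sycp3, the partner of Sycp2, did not pass the test (difference 0.34 ± 0.26, adjusted p = 0.312). Stra8, the retinoic acid target that opens meiosis in ovaries, had 5.20, 7.65 and 6.97 at E15.5, against 4.73, 4.55 and 4.83 at E13.5. It was detected on 2 of 3 E15.5 arrays and no E13.5 array and was at least 1.36-fold higher (adjusted p = 0.00632), with E15.5 replicate 1 near the E13.5 arrays. Without E15.5 replicate 2 its probe was detected on too few arrays to be tested.

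Of 12 measured genes that respond to or carry retinoic acid, 7 rose and 1 fell (58.3% and 8.33%, against 24% and 24.1% of all genes). The median was 0.79. The count of higher members was 4 without E15.5 replicate 2, E13.5 replicate 1 or E13.5 replicate 3 and 3 without E15.5 replicate 3 or E13.5 replicate 2. Crabp1, a cytosolic retinoic acid binding protein, had 7.16, 6.83 and 7.71 at E15.5, against 5.39, 5.97 and 5.50 at E13.5 and was at least 2.1-fold higher (adjusted p = 0.000263). Meis1, a homeobox cofactor, had 7.47, 10.56 and 7.46 at E15.5, against 6.20, 6.43 and 6.40 at E13.5, highest on E15.5 replicate 2 as were many somatic genes, and its difference was 2.15 ± 0.67 with all arrays and 1.13 ± 0.27 without that one (adjusted p = 0.0216 and 0.00646). Its call was lost when any 1 E13.5 array was left out (adjusted p of 0.051 to 0.0593) and under 5 settings that leave out no array of the 6, with adjusted p up to 0.0608. Rxrb, a retinoid X receptor, fell by 1.09 ± 0.21 (adjusted p = 0.0015).

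**Figure D5:**
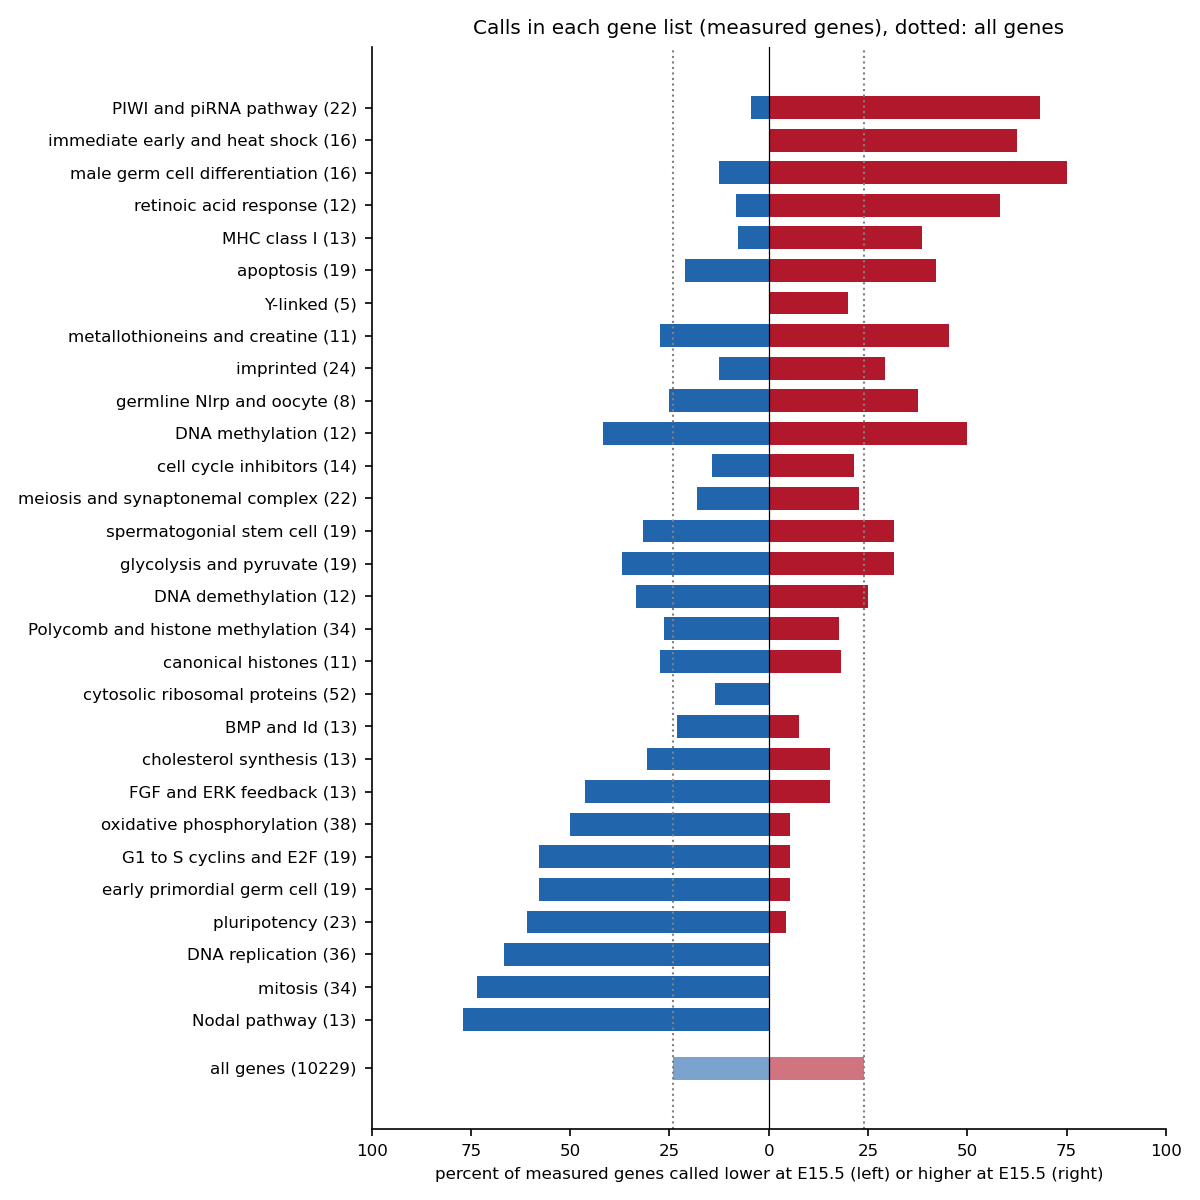
Percent of measured members called higher (right) and lower (left) at E15.5 for each gene list, with measured members in brackets and lines for the shares over all genes (24% higher, 24.1% lower). With all 6 arrays, replication and mitosis genes have no member called higher, and the immediate early list has none called lower.

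Energy metabolism shifted in parts. Of 38 measured genes of oxidative phosphorylation 2 rose and 19 fell (5.26% and 50%, against 24% and 24.1% of all genes). Their median was -0.52. The number higher was 1 without any 1 of E15.5 replicates 1 and 3 and E13.5 replicates 2 and 3. Atp5pb, a subunit of ATP synthase, had 8.13, 9.00 and 8.39 at E15.5, against 10.70, 10.47 and 10.48 at E13.5, a difference of -2.04 ± 0.24 (adjusted p = 6.98e-05). Cox7a2, of cytochrome c oxidase, fell by 1.72 ± 0.19 and Ndufa1, of complex I, fell by 1.56 ± 0.25 (adjusted p = 5.19e-05 and 0.000549), while Ndufs8, also of complex I, rose by 0.72 ± 0.15 (adjusted p = 0.00254). Glycolysis and pyruvate genes were split, 6 of 19 higher and 7 lower (31.6% and 36.8%, against 24% and 24.1% of all genes). Gapdh had 9.09, 9.41 and 9.07 at E15.5, against 10.21, 10.20 and 10.40 at E13.5, a difference of -1.08 ± 0.15 (adjusted p = 0.00024), Pgk1, phosphoglycerate kinase, fell by 1.08 ± 0.20 and Pdha1, of pyruvate dehydrogenase, fell by 1.48 ± 0.14 (adjusted p = 0.00119 and 1.7e-05). Eno2 and Aldoc, the neuronal isoforms of enolase and aldolase, were at least 5.57-fold and 1.48-fold higher (adjusted p = 1.62e-05 and 0.000482), and Pfkm, the muscle phosphofructokinase, rose by 1.06 ± 0.23 (adjusted p = 0.00311).

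Creatine kinases fell while an enzyme of creatine synthesis was higher. Ckb, the cytosolic brain isoform, averaged 7.27 ± 0.50 at E15.5 and 10.65 ± 0.42 at E13.5 (SD, n = 3 each), a difference of -3.38 ± 0.27 (adjusted p = 6.19e-06). Ckmt2, a mitochondrial isoform detected on no E15.5 array, had 4.71, 4.92 and 4.92 at E15.5, against 8.05, 7.49 and 8.03 at E13.5 and was at least 3.66-fold lower (adjusted p = 3.06e-06). Both had been higher still at E11.5, with means of 12.26 and 9.73. Gatm, which makes the creatine precursor, had 7.95, 9.98 and 8.27 at E15.5, against 5.33, 6.51 and 7.46 at E13.5, a difference of 2.30 ± 0.57 (adjusted p = 0.00724), with a non-germ mean of 10.15 and a range of 1.68 to 2.80 when single arrays were left out. Of 13 measured genes of cholesterol synthesis 2 rose and 4 fell (15.4% and 30.8%, against 24% and 24.1% of all genes). The count of lower genes was unstable, at 7 without E15.5 replicate 2, 1 without E13.5 replicate 3 and 2 without E15.5 replicate 1, E15.5 replicate 3 or E13.5 replicate 2, and 1 gene was higher without E15.5 replicate 2, E13.5 replicate 1 or E13.5 replicate 3. Insig1, a sterol sensor, rose by 0.61 ± 0.16 (adjusted p = 0.01). The shown probe of Sqle, squalene epoxidase, fell by 1.22 ± 0.21 (adjusted p = 0.000882), but another probe of the gene was called higher, by 0.96 ± 0.20 (adjusted p = 0.00286). Of 52 measured cytosolic ribosomal protein genes none rose and 7 fell (0% and 13.46%, against 24% and 24.1% of all genes). These genes were thus called less often than all genes in both directions. The list median of -0.15 became 0.02 with cyclic loess. Rpl14 had 6.11, 5.49 and 5.93 at E15.5, against 7.88, 8.70 and 8.31 at E13.5, a difference of -2.45 ± 0.27 (adjusted p = 5e-05).

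Of 34 measured Polycomb and histone methylation genes 6 were called higher (17.6%) and 9 lower (26.5%), near the 24% and 24.1% of all genes. Kdm1b, a histone H3 lysine 4 demethylase needed for imprints in oocytes, had 11.79, 11.91 and 11.93 at E15.5, against 10.04, 9.74 and 9.85 at E13.5, a difference of 2.00 ± 0.20 (adjusted p = 3.17e-05), and Kmt2b, a lysine 4 methyltransferase, rose by 0.85 ± 0.22 (adjusted p = 0.00981). Kdm4c, a lysine 9 demethylase, fell by 1.49 ± 0.27, Ring1, of Polycomb complex 1, fell by 1.36 ± 0.25, and Phf19, an accessory protein of Polycomb complex 2, fell by 1.33 ± 0.31 (adjusted p = 0.00115, 0.00117 and 0.00484). Among histones, H3f3a, which encodes a histone H3 variant made outside S phase, had 11.74, 11.70 and 11.67 at E15.5, against 10.45, 10.50 and 10.51 at E13.5, a difference of 1.21 ± 0.14 (adjusted p = 5.8e-05). The replication-dependent H3c6 had 4.55, 5.87 and 4.98 at E15.5, against 8.16, 8.12 and 8.19 at E13.5, a difference of -3.02 ± 0.27 (adjusted p = 1.49e-05), and H3c1 was at least 2.2-fold lower (adjusted p = 4.05e-05). H2ax, the variant marked at DNA breaks, fell by 1.74 ± 0.24 (adjusted p = 0.00023), whereas H2bc4 rose by 1.20 ± 0.23 (adjusted p = 0.00163). Paralogous histone genes share sequence, and which copies a probe captures was not tested.

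DNA demethylation genes included a large fall. Tet1, which oxidises 5-methylcytosine, had 6.67, 5.67 and 6.89 at E15.5, against 9.75, 9.30 and 9.55 at E13.5, a difference of -3.12 ± 0.29 (adjusted p = 1.62e-05). Neil2, a DNA glycosylase, had 10.06, 9.80 and 10.44 at E15.5, against 8.36, 7.78 and 7.45 at E13.5, a difference of 2.23 ± 0.26 (adjusted p = 6.95e-05). The shown probe of Tdg, thymine DNA glycosylase, fell by 1.27 ± 0.21 (adjusted p = 0.000628), while another of its probes was called higher, by 0.92 ± 0.32 (adjusted p = 0.0353), so Tdg has no settled direction. In all, 3 of 12 rose and 4 fell (25% and 33.3%, against 24% and 24.1% of all genes). Without E15.5 replicate 3 or E13.5 replicate 2, 1 rose.

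FGF signalling and its feedback genes fell in 6 of 13 measured members and rose in 2 (46.2% and 15.4%, against 24.1% and 24% of all genes). Dusp4, a phosphatase of ERK kinases, had 5.24, 5.60 and 6.03 at E15.5, against 9.01, 8.57 and 8.99 at E13.5, a difference of -3.24 ± 0.21 (adjusted p = 1.7e-06). Fgfr2, an FGF receptor, had 9.21, 10.55 and 8.94 at E15.5, against 11.25, 11.36 and 11.67 at E13.5, a difference of -1.86 ± 0.34 (adjusted p = 0.00117). Egr1, an immediate early target of ERK, went against these, with 12.03, 13.38 and 11.73 at E15.5, against 9.88, 11.01 and 10.10 at E13.5, a difference of 2.05 ± 0.44 (adjusted p = 0.00308), and a non-germ mean of 13.63. The immediate early and heat shock list rose in 10 of 16 members, with none lower (62.5% and 0%, against 24% and 24.1% of all genes). Without E15.5 replicate 2 it rose in 8. Fosb, a subunit of AP-1, had 8.66, 12.44 and 7.83 at E15.5, against 5.41, 6.97 and 6.41 at E13.5, a difference of 3.38 ± 0.92 (adjusted p = 0.0115) and 1.99 ± 0.42 without E15.5 replicate 2 (adjusted p = 0.00277), and up to 4.29 without E15.5 replicate 3. Egr3 was detected on all E15.5 and no E13.5 arrays and was at least 3.11-fold higher (adjusted p = 0.000894), and at least 1.98-fold without E15.5 replicate 2. Fosb and Egr3 were highest on E15.5 replicate 2 and had non-germ means of 11.96 and 9.93.

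Of 13 measured BMP genes 1 rose and 3 fell (7.69% and 23.1%, against 24% and 24.1% of all genes). The count lower was 6 without E15.5 replicate 2, and 3 rose without E15.5 replicate 3 and with cyclic loess, and 2 without E15.5 replicate 1. Bmp4, a ligand, fell by 1.69 ± 0.25 (adjusted p = 0.000302), and Bmpr1b, a receptor, rose by 1.32 ± 0.25 (adjusted p = 0.00144). Among 19 genes of apoptosis 8 rose and 4 fell (42.1% and 21.1%, against 24% and 24.1% of all genes). Bcl2l2, which protects cells from death, had 9.42, 9.24 and 9.37 at E15.5, against 8.13, 8.12 and 8.13 at E13.5, a difference of 1.22 ± 0.14 (adjusted p = 6.29e-05), and Bcl2l1, another protective member, was at least 1.85-fold higher (adjusted p = 0.000586). Bik, which promotes death, fell by 1.68 ± 0.31, Pmaip1, likewise, fell by 0.99 ± 0.22, and Birc5, survivin, which acts in mitosis, fell by 1.16 ± 0.20 (adjusted p = 0.00141, 0.00408 and 0.000784). Bmf, which also promotes death, went the other way and was called higher, by 1.20 ± 0.23 (adjusted p = 0.0015). It was detected on 2 of 3 E15.5 arrays and no E13.5 array, so this size rests on signal near background. Members that protect from death and members that promote it thus did not each keep to 1 direction as a whole.

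Of 24 measured imprinted genes 7 were called higher (29.2%, against 24% of all genes) and 3 lower (12.5%, against 24.1%), and 8 were lower without E15.5 replicate 2. The share called higher was thus near that of all genes. Peg10, a paternally expressed gene of retroviral origin, had 9.84, 9.64 and 9.76 at E15.5, against 5.54, 6.43 and 5.40 at E13.5, a difference of 3.95 ± 0.51 (adjusted p = 0.00013), and of 1.92 over the mean of its 2 kept probes. Grb10, a receptor adaptor protein, had 12.45, 13.51 and 12.62 at E15.5, against 8.61, 8.77 and 9.50 at E13.5, a difference of 3.90 ± 0.34 (adjusted p = 1.22e-05). Dlk1, a Notch-like membrane protein, had 10.31, 13.18 and 10.34 at E15.5, against 7.49, 6.37 and 7.54 at E13.5, with E15.5 replicate 2 highest. Its difference was 4.15 ± 0.76 with all arrays (adjusted p = 0.0012) and 3.22 ± 0.57 without that array (adjusted p = 0.00102). Peg10, Grb10 and Dlk1 were also expressed in non-germ cells, with means of 9.61, 14.28 and 13.64. Asb4 and Peg12 differed by -1.51 ± 0.28 and -1.22 ± 0.27 (adjusted p = 0.00121 and 0.00392). Arrays of this kind do not separate the parental alleles.

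MHC class I genes rose in 5 of 13 measured members and fell in 1 (38.5% and 7.69%, against 24% and 24.1% of all genes). B2m, the light chain of class I molecules, had 9.20, 10.28 and 9.13 at E15.5, against 6.27, 6.18 and 6.28 at E13.5, a difference of 3.29 ± 0.33 (adjusted p = 2.6e-05) and 2.95 ± 0.26 without E15.5 replicate 2 (adjusted p = 1.58e-05). H2-D1, a heavy chain, was at least 2.7-fold higher (adjusted p = 8.85e-06). Nlrc5, the transactivator of class I genes, had 8.58, 8.39 and 9.35 at E15.5, against 4.65, 4.62 and 4.63 at E13.5 and was at least 6.11-fold higher (adjusted p = 4.55e-07). Nlrc5 was at background in non-germ cells, with a mean of 4.64, while B2m had 10.71 there. Besides Nlrp4f, of 8 measured germline Nlrp and oocyte genes Tle6, a subunit of the oocyte subcortical complex, rose by 3.39 ± 0.31 and Nlrp4c by 0.91 ± 0.21, and Khdc3 and Ooep, 2 other subunits of that complex, differed by -2.76 ± 0.17 and -2.21 ± 0.19 (adjusted p = 1.66e-05, 0.00457, 1.2e-06 and 1.23e-05). Of 5 measured Y-linked genes 1 was called, in the higher direction (20%, against 24% of all genes). This was Usp9y, a deubiquitinase, with 9.24, 8.50 and 9.47 at E15.5, against 6.99, 6.59 and 6.91 at E13.5, a difference of 2.24 ± 0.26 (adjusted p = 6.49e-05).

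Markers of the other cells of the gonad were higher at E15.5 in several lists, and most of all on E15.5 replicate 2. Of 10 measured interstitial markers 6 rose and none fell (1 fell without E15.5 replicate 2). Of 12 Sertoli markers 2 rose and 1 fell (16.7% and 8.33%, against 24% and 24.1% of all genes). The share that rose was thus below that of all genes, but 8 rose without E15.5 replicate 1. The Sertoli marker that fell was Dmrt1. Its non-germ mean of 5.25 lay far below its germ cell means of 10.25 (E13.5) and 9.09 (E15.5), so it did not mark the non-germ cells here. Of 4 erythroid markers 3 rose, and of 5 endothelial markers 3 rose and 2 fell. No endothelial marker was called lower without E15.5 replicate 1, E15.5 replicate 3, E13.5 replicate 2 or E13.5 replicate 3. Pdgfra, a receptor of interstitial cells, had 9.80, 12.17 and 10.04 at E15.5, against 6.39, 6.74 and 7.34 at E13.5, a difference of 3.84 ± 0.54 with all arrays and 3.12 ± 0.34 without E15.5 replicate 2 (adjusted p = 0.000232 and 5.01e-05). Sox9, the Sertoli cell factor, had 9.86, 11.97 and 10.53 at E15.5, against 5.00, 6.54 and 8.36 at E13.5, a difference of 4.15 ± 0.76 with all arrays and 3.57 ± 0.77 without E15.5 replicate 2 (adjusted p = 0.00127 and 0.00337). Both were above every E13.5 array on E15.5 replicates 1 and 3 as well. Sox9 differed by 5.00 without E13.5 replicate 3, the highest E13.5 array, and by 2.71 over the mean of its 2 kept probes. Col5a1 and Col6a1, fibrillar and microfibrillar collagens, were at least 9-fold and 9.86-fold higher (adjusted p = 4.47e-06 and 0.000624). The bound of Col6a1 was 4.61-fold without E15.5 replicate 2. Hbb-bt, a beta globin, had 9.63, 13.52 and 8.83 at E15.5, against 5.63, 7.73 and 6.86 at E13.5, a difference of 3.92 ± 0.97 with all arrays and 2.51 ± 0.52 without E15.5 replicate 2 (adjusted p = 0.00716 and 0.00257), and of 4.84 without E15.5 replicate 3. Amh, the hormone that defines Sertoli cells, was detected on none of the 6 germ cell arrays and on both non-germ arrays. There its signal of 5.88 lay near the lowest detected signal of 5.82. Of 20 Sertoli markers with a probe, 17 were detected on E15.5 replicate 2, 4 and 13 on replicates 1 and 3, and 2 to 7 at E13.5. Ptprc, the common leukocyte antigen, was detected on none of the 6 germ cell arrays and on neither non-germ array. Of 14 leukocyte markers, 7 were detected on E15.5 replicate 2, and 8 and 13 on the non-germ arrays. On the other arrays of the 6, 2 or 3 were.

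Some somatic genes were high on E15.5 replicate 2 alone. Col3a1, a fibrillar collagen, had 6.08, 12.46 and 6.38 at E15.5, against 4.93, 5.14 and 6.53 at E13.5. Ccn1, a matricellular protein, had 4.96, 12.28 and 7.06 at E15.5, against 4.67, 5.07 and 7.04 at E13.5. Without E15.5 replicate 2 the differences were 0.68 ± 0.56 and 0.41 ± 0.67 (adjusted p = 0.35 and 0.646), so neither gene was called in either fit. Both were called higher when E15.5 replicate 1 was left out instead. Hba-a1, an alpha globin, and Stc1, a secreted glycoprotein, were called with all arrays, at least 7.98-fold and 5.4-fold higher (adjusted p = 0.00957 and 0.0431), and also without E15.5 replicate 2 (adjusted p = 0.0013 and 0.00728). That array set the size of both, since the bounds were 2.58-fold and 1.41-fold without it. The call of Stc1 was lost under other settings, with adjusted p up to 0.114, and that of Hba-a1 with adjusted p up to 0.0915. The genes lowest on E15.5 replicate 2 relative to replicates 1 and 3 included Art3, Rgs9 and Kcna1. Rgs9, a regulator of G protein signalling, had 8.28, 6.60 and 8.01 at E15.5, against 5.20, 5.72 and 5.05 at E13.5, and Kcna1, a potassium channel, had 6.85, 5.05 and 6.53 at E15.5, against 4.63, 4.77 and 4.84 at E13.5. In Rgs9 and Kcna1 E15.5 replicate 2 lay nearer to the E13.5 arrays than replicates 1 and 3 did, and the non-germ means were 5.38 and 5.26. Hnrnpl, an RNA-binding protein that was also among these genes, did not follow this, with 7.65, 5.52 and 7.08 at E15.5, against 7.31, 7.93 and 7.06 at E13.5, and neither did Slc25a35, of the mitochondrial carrier family, with 7.51, 6.02 and 7.47 at E15.5, against 7.48, 7.01 and 6.88 at E13.5. In both, E15.5 replicate 2 was below every other germ cell array of the 6, and neither was called.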

How the data were processed

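RNA of sorted cells was amplified, labelled and hybridised to Illumina BeadChips, per the labels' protocols. The deposited table holds 1 intensity per probe and array on a linear scale, not normalized between arrays, and a detection p-value beside each, per the file headers. The authors' background step is not given in the sources used here. Their processed values are linear intensities, each array a straight line of its deposited signal, and served as an alternative. Intensities of all 11 arrays were background-corrected by normexp from the detection p-values with an offset of 16, quantile-normalized and log2-transformed in limma 3.58.1 (R 4.3.3). Probes with a detection p below 0.01 on at least 2 of the 6 arrays entered 1 linear model over all 4 groups, with empirical Bayes moderation and Benjamini-Hochberg adjustment over all kept probes. The model was tested on simulated data. For 18781 probes with 200 changed, it recovered 64.5% of them, and 5.15% of its calls were false. The simulation held far fewer changed probes than were called here and no array that stood apart. Its rates therefore need not hold for these data. The files give no bead counts, and precision is limited by the number of arrays.

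Of the 45281 probes, 34885 had 1 gene symbol in the platform annotation, 18 had several and 10378 had no entry there. Unnamed kept probes numbered 3217. Of the named genes, 3714 had more than 1 kept probe, and 51 called genes had another kept probe called the other way.

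Members and lists were chosen with earlier results of these data known. Genes were named by rule: the 12 largest rises and falls called with and without E15.5 replicate 2, without overlap and detected at both stages; the 8 largest bounds each way; up to 3 called members of each list each way; a fixed set of germ line, cell cycle and marker genes; the 6 genes most above and below on E15.5 replicate 2; and probes of these called the other way. Alternatives varied normalization, background, filter, weights, prior, probe choice, block and each array left out.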

Additional observations from a re-analysis of the deposited data

How the results depend on the processing

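The counts of probes and genes higher and lower at E15.5 stayed within 1.5 times the reported ones under every alternative run. Leaving out single arrays gave 3013 to 3846 probes higher and 3627 to 4616 lower, lowest without E15.5 replicate 3 and without E13.5 replicate 3. Cyclic loess turned the balance, with 4807 probes higher and 3563 lower (57.4% of calls higher, against 45.5%), and 55.0% without E15.5 replicate 2, an alternative chosen after seeing the data. The labels number the replicates alike at both stages but do not say whether the numbers pair the samples. Deviations of same-numbered arrays from their stage means correlated at 0.14, -0.03 and -0.09. Those of differently numbered arrays correlated at -0.21 to 0.22. Whether the numbers mark a shared day was not tested. With the replicate block 3780 probes were higher and 4500 lower, and 3600 and 4321 with the block and without E15.5 replicate 2. No sign of a called named gene turned. Of 206 named genes 185 were called, 156 of them in every alternative. Of 3869 alternative values of these genes 119 lost and 21 gained a call, and 133 of 1406 list counts moved over 1.5 times. The cause was not tested. A slide block was not run, since the headers name no slide. Signal near background limits the size of differences of dim genes.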
